A study of Mus musculus with 8 samples.

Results

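The subunits of the mitochondrial respiratory chain were followed in primary peritoneal mesothelial cells (MCs), the flat epithelial cells that line the peritoneal cavity. Members were taken by gene symbol from the table of the series. They were the Nduf symbols of complex I, the Sdh symbols of complex II, the Uqcr symbols and Cyc1 of complex III, Cox4 to Cox8 symbols of complex IV, Atp5 symbols of complex V, and the protein-coding genes of the mitochondrial genome. Of 13687 genes, 94 matched, 81 of them nuclear and 13 mitochondrially encoded. Complex I had 43 members (36 nuclear), complex II 4, complex III 10 (9 nuclear), complex IV 17 (14 nuclear) and complex V 17 (15 nuclear). The other 3, Atp5s, Atp5sl and Ndufa4l2, matched by name but are not structural subunits and entered no complex summary. Ndufa4 was kept with complex I by its symbol, although its protein is found with complex IV.

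The 8 RNA-seq libraries came from 4 mice, 2 WT animals and 2 CAV1-deficient littermates of the strain B6.Cg-CAV1tm1mls/J, which the labels call Cav-1- and which are written CAV1-/- here. Each animal gave a static culture and a culture stretched for 24 h after confluence, so that every one of the 4 groups (WT static, WT stretched, CAV1-/- static, CAV1-/- stretched) held 2 libraries. Replicate 1 and replicate 2 name the 2 animals of a genotype, and the same number in WT and CAV1-/- names different animals. MCs of both genotypes were obtained by enzymatic digestion of parietal peritoneum and grown in serum, so other cells of that tissue could be carried into the cultures. The CAV1 deficiency is carried by the whole animal, and the age of the mice and the stretching regimen of the mouse cultures were not given in the sources used here.

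The respiratory chain sits in the inner mitochondrial membrane. Complex I (NADH dehydrogenase) and complex II (succinate dehydrogenase, also an enzyme of the citric acid cycle) pass electrons to ubiquinone, complex III (the cytochrome bc1 complex) passes them to cytochrome c, and complex IV (cytochrome c oxidase) passes them to oxygen. Complexes I, III and IV pump protons, and complex V (ATP synthase) uses the resulting gradient to make ATP. The catalytic core of complexes I, III and IV and the membrane part of complex V are partly encoded by mitochondrial DNA and transcribed inside the organelle. Complex II and all remaining subunits are encoded in the nucleus and imported, so the other complexes need transcripts from both genomes.

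The libraries held 9777738 to 21203938 reads assigned to genes, recovered from the deposited values, and the 4 stretched libraries were each deeper than every static one. Cav1, the targeted gene, read 764 and 275 normalized counts in WT static, 570 and 247 in WT stretched, 34.5 and 18.9 in CAV1-/- static and 20.0 and 12.8 in CAV1-/- stretched. Mesothelial markers were present in all libraries, but their summed value over 11 genes was 2959 to 3898 in WT and 854 to 1116 in CAV1-/-. The genotypes overlapped for Wt1 (94.9 to 133 in WT, 74.9 to 138 in CAV1-/-) and Krt19 (21.7 to 65.9 in WT, 2.67 to 69.4 in CAV1-/-). The other markers of the list were lower in every CAV1-/- library than in any WT library. Leukocyte markers (12 genes, none at 0) summed to 435 and 465 in both cultures of WT replicate 1, 75.6 and 82.4 in WT replicate 2, 4620 and 4697 in CAV1-/- replicate 1 and 306 and 335 in CAV1-/- replicate 2, and 12 of 12 were highest in the cultures of CAV1-/- replicate 1. Fewer cells of a type and less RNA per cell cannot be told apart in such libraries. The n of 2 per group means that p-values rest on the spread between the 2 animals within each group, pooled over the 4 groups.

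All values, called normalized counts, are TMM-normalized CPM, which are scaled between libraries so that most genes keep the same level. Differences are given on the log2(value + 1) scale with the standard error (SE) of the limma fit over all genes, and a gene was called at an adjusted p under 0.05 (Benjamini-Hochberg over 13665 genes that reached 1 normalized count in 2 or more libraries, as 94 of 94 members did). The fit held no term for the animal. The SE of a stretch difference therefore includes the spread between animals, although both cultures came from the same animal.

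Reads of 4 mitochondrially encoded members could not be told apart from those of near-identical copies in the nuclear genome. A block of mitochondrial sequence lies on the minus strand of chromosome 1 (GRCm38), and the table held a separate row for 4 of its copies, Gm28661 of mt-Co2, Gm10925 of mt-Atp6, Gm28437 of mt-Co3 and Gm28438 of mt-Nd3. The first 3 copies matched their gene at every aligned base (681, 678 and 783 bases). mt-Nd3 (chrM:9459-9806) and Gm28438 (chr1:24612775-24613119) differed at 1 of 345 aligned bases, T3C, counted from 1 at the first base of the gene, with the base of mt-Nd3 first. The first 61 bases of each, the length of 1 read, are shown here with the differing base in capitals, since this base is the only aligned one that separates the pair.
mt-Nd3 (chrM:9459-9519, plus strand): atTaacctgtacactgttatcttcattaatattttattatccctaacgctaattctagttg
Gm28438 (chr1:24613059-24613119, minus strand): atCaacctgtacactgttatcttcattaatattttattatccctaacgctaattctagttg

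Of all 61-base windows of the GENCODE M21 transcripts, 99.5% of mt-Co2, 99.5% of mt-Atp6, 99.9% of mt-Co3 and 97.9% of mt-Nd3 were found unchanged in the copy. The division of reads between gene and copy varied between libraries. The mitochondrial gene held 4.93% to 55.9% of the summed value of the pair for mt-Nd3, 10.7% to 45.4% for mt-Co3, 16.6% to 55.8% for mt-Co2 and 12.6% to 26.3% for mt-Atp6. As deposited, mt-Nd3, a complex I subunit, read 6.02 and 19.8 in WT static, 91.8 and 49.96 in WT stretched, 82.0 and 26.1 in CAV1-/- static and 72.6 and 46.4 in CAV1-/- stretched, a 15.3-fold range. Summed with Gm28438, the range was 2.11-fold. For mt-Co3, mt-Co2 and mt-Atp6 the range shrank from 4.73, 3.56 and 2.79-fold to 1.57, 1.503 and 1.66-fold. Differences of these 4 genes are therefore given below also as the sum with the copy, an alternative chosen after the values were seen. Levels per kb use the deposited values.

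**Figure D1:**
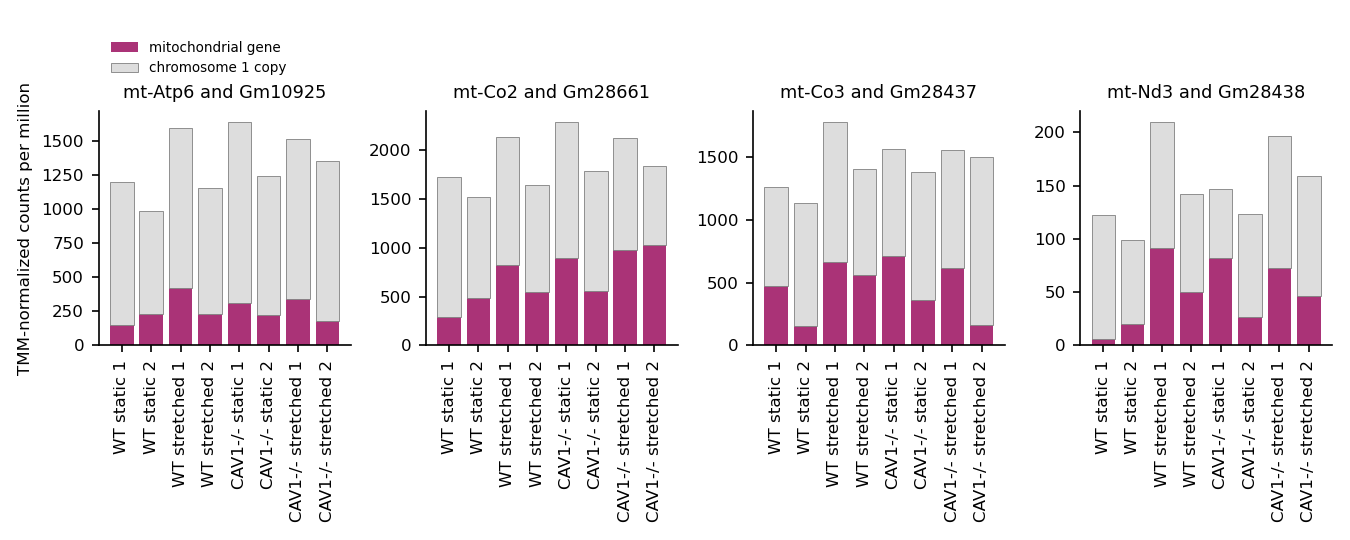
Stacked bars give the TMM-normalized CPM of 4 mitochondrially encoded genes (purple) and of their chromosome 1 copies (grey) in each of the 8 libraries, with 1 panel per pair. The height of the whole bar varied less than the purple part, which for mt-Nd3 ran from 6.02 to 91.8.

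The other 9 mitochondrially encoded genes had no copy of their whole length in the table, but 5 of them shared windows with other genes. mt-Nd4l shared 98.7% of its windows with Gm10222 and mt-Nd4 61.9% with Gm28439, neither of which had a row, and mt-Co1 shared 28.2% with Gm29216, which had a row and was not summed with it. mt-Nd2 (7.06%) and mt-Nd5 (4.14%) shared few windows, with genes that had no row. mt-Nd6 is transcribed from the opposite strand to its neighbour mt-Nd5 and the library kit did not mark strand, so reads where they overlap could not be assigned by strand. Among nuclear members, Atp5g2, which encodes a form of the membrane ring subunit c of complex V, shared 36.3% of its windows with Gm10175. Ndufb6 shared 29.9% with Smim27, Ndufb4 17.8% with Ndufb4c, Cox7c 11.1% with Gm12338 and Ndufb5 10.9% with Mrpl47, all of which had rows.

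Mitochondrially encoded transcripts stood far above the nuclear ones per length. Levels per kb were set by dividing the mean value over the 8 libraries by the length of the union of annotated exons. The nuclear members of the complexes had medians of 30.7 (I), 42.1 (II), 55.4 (III), 71.6 (IV) and 65.2 (V) normalized counts per kb. As deposited, mt-Co1, the catalytic subunit of complex IV, was the highest member at 3231 per kb. It was followed by mt-Atp8 of complex V (1703), mt-Cytb, the cytochrome b of complex III (1573) and mt-Nd1 of complex I (1458). mt-Co2, mt-Atp6, mt-Co3 and mt-Nd3 entered this order without the reads placed on their copies. Their levels per kb with the copy were not computed, so the order below mt-Co1 may differ with them. mt-Nd3 was the lowest mitochondrially encoded member at 142 per kb as deposited. The libraries were made from poly-A selected RNA, so transcripts with short or no tails may be under-represented, and levels of mitochondrially encoded genes are levels of what this selection kept.

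Within the complexes, levels of nuclear members spread widely. In complex I they ran from 4.06 per kb for Ndufb2 to 90.1 for Ndufa2, and in complex III from 28.6 for Uqcrc1, a core protein, to 95.5 for Uqcr10, a small accessory subunit. Complex II was narrower, from 25.4 for the membrane anchor Sdhc to 71.5 for the other anchor, Sdhd, with the flavoprotein Sdha at 52.98 and the iron-sulfur subunit Sdhb at 31.3. Complex V ran from 15.4 for Atp5l to 253 for Atp5b, the catalytic beta subunit, whose partner alpha, Atp5a1, was at 194. Complex IV held both the highest nuclear subunit, Cox6a1 at 259 per kb, and the lowest, Cox6b2 at 1.29. Dividing by the longest transcript instead raised every nuclear median, to between 45.4 for complex I and 99.5 for complex IV.

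**Figure D2:**
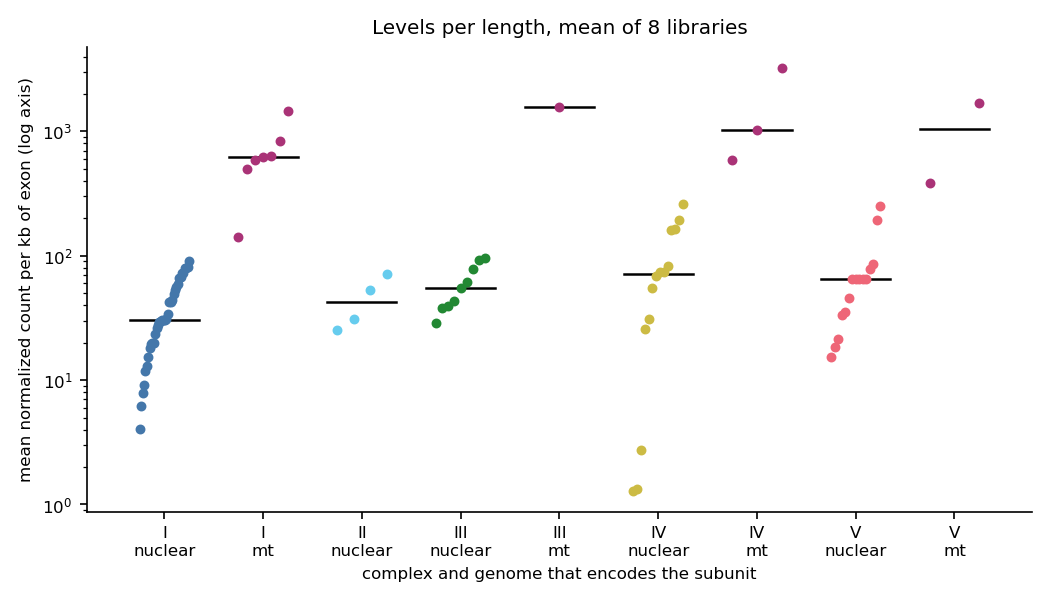
Each point is 1 subunit, its mean normalized count per kb of exon over 8 libraries on a log axis, by complex and by the genome that encodes it, with a bar at the median. Mitochondrially encoded subunits lie between 142 and 3231 per kb and nuclear ones between 1.29 and 259. All values are as deposited, and genes with a chromosome 1 copy are shown without it.

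Complex IV exists with alternative subunits that are used in different tissues, and the MCs expressed the forms known from most tissues. Cox6a1 made up 99.1% to 99.8% of the per-length level of the Cox6a pair in the 8 libraries, and Cox6b1 98.4% to 99.6% of the Cox6b pair. The heart and muscle forms Cox6a2 (0.404 to 1.75 normalized counts) and Cox7a1 (0.431 to 2.73), and the testis form Cox6b2 (0.602 to 3.01), were low, with 1 read worth 0.0485 to 0.103 normalized counts. Cox7a2 and Cox7a2l, the second of which is known as a factor that joins complexes into supercomplexes, shared the Cox7a level almost evenly, with Cox7a2 at 45.9% to 52.8%. In complex V, Atp5g3 made up 47.1% to 55.6% of the per-length level of the 3 subunit c genes, Atp5g2 33.3% to 42.7% and Atp5g1 9.88% to 11.7%. Cox4i1, the regulatory subunit that complex IV is often recognized by, read 219.99 to 299.8 normalized counts. Its isoform gene Cox4i2, and Cox8b, had no row in the table.

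The first comparison asks what stretch did to the chain in WT MCs. No single subunit passed the test, but the mitochondrially encoded ones were higher on stretch in both animals throughout, while the nuclear ones divided. In limma 0 of 94 members were called, with 1 at an unadjusted p under 0.05, beside 310 of all 13665 genes. With the replicate number as a block, 1 term shared by both genotypes, 7 members were at that level, beside 931 of all genes. In edgeR and in DESeq2 on recovered reads 0 of 94 were called too. Of all 13665 genes tested, 0% were called in this comparison. Of the 13 mitochondrially encoded members 13 were higher on stretch in both animals, and of the 81 nuclear members 32 were higher and 25 lower in both. For all 94 members the counts were 45 higher and 25 lower, beside 28.7% and 33.9% of all genes. The median log2 difference was 0.32 for the mitochondrially encoded members and 0.019 for the nuclear ones, beside -0.017 for all genes. The stretched libraries were also the deeper ones, and the part of depth in this result was not tested.

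mt-Nd2, a membrane subunit of complex I with no copy row, read 553 and 477 in WT static and 861 and 590 in WT stretched. The groups did not overlap, and the log2 difference was 0.47 (SE 0.29, limma adjusted p = 1) in the fit, which did not pair the cultures. Within the animals it was 0.64 in replicate 1 and 0.31 in replicate 2. mt-Nd1, another membrane subunit, read 1273 and 1080 in static and 1729 and 1244 in stretched culture, so the groups overlapped. mt-Cytb read 1662 and 1640 in static and 1912 and 1793 in stretched culture, a log2 difference of 0.17 (SE 0.16). mt-Co1 showed the smallest difference of the mitochondrially encoded genes, from 4833 and 3983 to 5048 and 4488, a log2 difference of 0.12. The 9 genes with no whole-length copy in the table had a median log2 difference of 0.30 in replicate 1 and 0.25 in replicate 2.

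The members with the largest positive differences among those whose groups did not overlap were mt-Nd3 (2.51, SE 0.72), mt-Co3 (1.19) and mt-Co2 (0.84), each with an adjusted p of 1 in limma. All of them are genes with a copy. Summed with the copy, the log2 differences were 0.64 (SE 0.23) for mt-Nd3, 0.40 for mt-Co3 and 0.21 for mt-Co2, each with an adjusted p of 1 in limma. With sums for the 4 pairs, 13 of 13 were again higher on stretch in both WT animals, by 0.063 to 0.78 in replicate 1 and by 0.11 to 0.51 in replicate 2.

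The members with the largest negative differences among those whose groups did not overlap were Cox6b2, from 3.01 and 1.86 in static to 0.937 and 1.17 in stretched culture, Uqcrc1, from 124 and 123 to 109 and 108, and Ndufb8, an accessory subunit of complex I, from 62.7 and 54.1 to 52.6 and 50.9. Their log2 differences were -0.72, -0.18 and -0.17, each with an adjusted p of 1 in limma. The nuclear medians of the complexes stayed between 0.0018 and 0.052. The median over all members turned from 0.045 to -0.076 without WT static replicate 2 and to -0.086 without WT stretched replicate 1. Without those libraries the mitochondrially encoded median was 0.25 and 0.23. Each of these fits set cultures of both animals against a culture of 1 animal, which mixes the difference between animals into that of stretch. Within the animals the all-member median was 0.041 in replicate 1 and 0.019 in replicate 2.

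In CAV1-/- MCs the same question gave a different picture for the nuclear members. The nuclear median was -0.13 and 55 of 81 nuclear members were lower on stretch in both animals, against 8 higher. For all 94 members the counts were 56 lower and 13 higher, beside 30.9% and 30% of all genes. The mitochondrially encoded member among the 56 was mt-Co3 as deposited. Summed with its copy it was -0.0039 in replicate 1 and 0.12 in replicate 2. All 4 complex II members were lower in both animals, as were 27 of 36 nuclear members of complex I, 11 of 15 of complex V, 8 of 14 of complex IV and 5 of 9 of complex III. No member was called in limma (0 of 94, with 1 at an unadjusted p under 0.05, and 7 with the replicate number as a block). Of all 13665 genes, 286 were at that unadjusted p, and 838 with the block. No member was called in edgeR or DESeq2 (0 of 94 in each). Of all genes 0% were called in limma.

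Atp5g2 had the largest negative difference with no overlap, from 112 and 134 in static to 83.5 and 91.6 in stretched culture, a log2 difference of -0.49 (SE 0.17, limma adjusted p = 1.00). It was followed by Ndufa11, a small membrane subunit of complex I, from 42.3 and 35.9 to 32.6 and 27.5 (-0.37), and the low Cox6a2, from 1.24 and 1.13 to 0.631 and 0.766 (-0.36). Both libraries of each of these genes lay below both static libraries. The largest positive differences with no overlap were those of mt-Co2 (0.50), Ndufb2, from 21.4 and 19.6 to 29.4 and 26.4 (0.43, SE 0.22), and Cox5b, the zinc-binding subunit of complex IV, from 84.3 and 71.4 to 104 and 101 (0.40, SE 0.16). The difference of mt-Co2 turned to -0.030 when it was summed with its copy.

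The mitochondrially encoded members divided by animal in CAV1-/- cultures. With sums for the 4 pairs, 13 of 13 were higher on stretch in CAV1-/- replicate 2, by 0.032 to 0.40, and 5 of 13 in CAV1-/- replicate 1, with differences from -0.35 to 0.42. CAV1-/- replicate 1 is the animal with the high leukocyte markers, and the part of those cells in this result was not tested. The all-member median for stretch in CAV1-/- was -0.11, 0.034 without CAV1-/- static replicate 1, -0.0092 without CAV1-/- stretched replicate 2 and -0.063 without both cultures of CAV1-/- replicate 1. Leaving out 1 culture sets both animals against 1, which mixes in the difference between animals. Within the animals the median was -0.14 in replicate 1 and -0.063 in replicate 2.

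**Figure D3:**
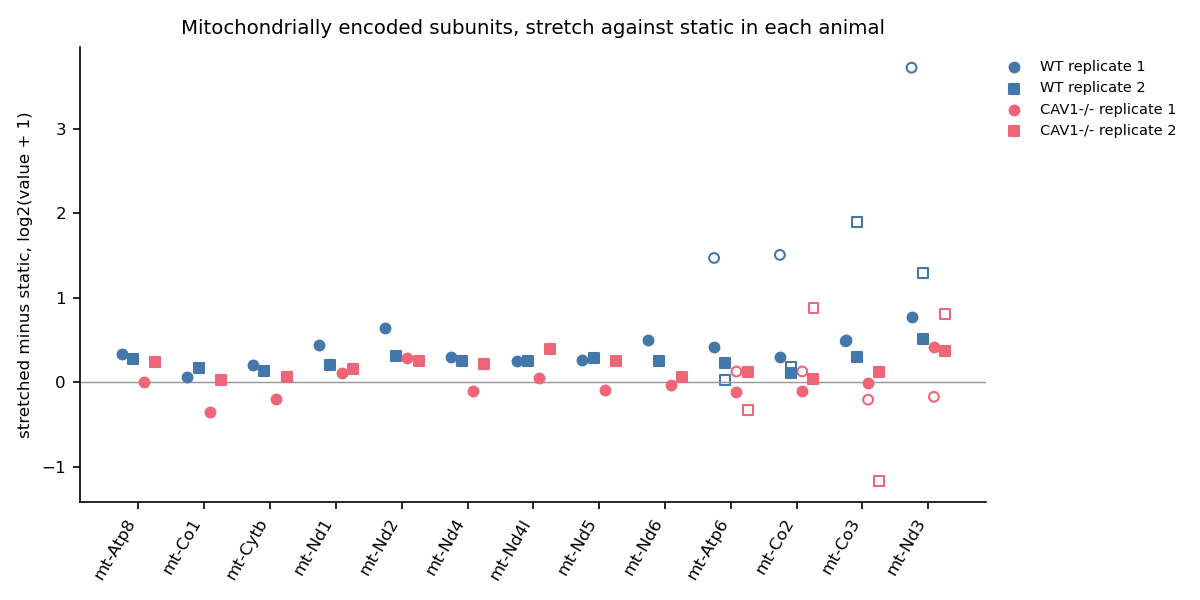
Each point gives stretched minus static on the log2(value + 1) scale for 1 mitochondrially encoded gene in 1 animal (blue WT, red CAV1-/-, circles replicate 1, squares replicate 2). For the 4 genes at the right, filled points use the sum with the chromosome 1 copy and open points the deposited value. Filled WT points and CAV1-/- replicate 2 points all lie above 0, and 5 of 13 CAV1-/- replicate 1 points do.

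The comparison of genotypes in static culture asks what the lack of CAV1 did at rest. Most members read higher in CAV1-/- than in WT, with none past the test. The median log2 difference was 0.16 over all members, beside -0.013 for all genes, and 82 of 94 differences were positive. The nuclear medians of complexes I to V were 0.14, 0.15, 0.11, 0.16 and 0.18. In limma 0 of 94 members were called, with 4 at an unadjusted p under 0.05, and 0 of 94 in edgeR and in DESeq2. Of all 13665 genes 0.0732% were called in limma and 1117 had an unadjusted p under 0.05. The groups did not overlap in 25 members, 23 of them higher and 2 lower in CAV1-/-, beside 16.1% and 20.8% of all genes.

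Ndufb5, an accessory subunit of complex I, read 37.3 and 30.04 in WT and 45.8 and 42.9 in CAV1-/- static MCs, a log2 difference of 0.39 (SE 0.15, limma adjusted p = 0.558). Among members whose groups did not overlap, the differences above it were those of mt-Nd3 (1.97) and mt-Co2 (0.92), which were 0.29 and 0.32 when summed with their copies. Sdhb read 66.9 and 57.6 in WT and 94.1 and 69.1 in CAV1-/-, and Atp5b 1072 and 909.6 in WT and 1306 and 1035 in CAV1-/-. In Sdhb the groups did not overlap, and in Atp5b they did. Ndufv1, the NADH-binding subunit of complex I, was lower, at 90.8 and 84.9 in WT and 82.7 and 76.7 in CAV1-/- (-0.14, SE 0.10, limma adjusted p = 0.831).

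The size of the static difference moved with single libraries. Without CAV1-/- static replicate 1 the all-member median was 0.039 and the mitochondrially encoded median went from 0.30 to 0.086, and without WT static replicate 2 the all-member median was 0.043. CAV1-/- static replicate 1 was the highest library for the nuclear median of each complex, and its leukocyte marker sum was 4620, against 306 in the other CAV1-/- static culture. The part of those cells in this result was not tested.

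On stretch the genotypes lay close together. The median log2 difference between CAV1-/- and WT was 0.010 over the 94 members and 0 for all genes, and it changed sign with the scaling of the libraries (-0.026 after quantile normalization, -0.057 with equal totals without mitochondrially encoded genes). In limma 0 of 94 members were called and 0 had an unadjusted p under 0.05, beside 0.0585% and 856 of all 13665 genes. In edgeR and in DESeq2 0 of 94 members were called. The groups did not overlap in 8 members that were higher in CAV1-/- and 6 that were lower, beside 14.6% and 15.9% of all genes. Cox5b read 88.8 and 80.5 in WT and 104 and 101 in CAV1-/- stretched MCs (0.27, SE 0.16), and Ndufb4 10.996 and 9.67 in WT and 12.1 and 12.7 in CAV1-/- (0.25, SE 0.20). Atp5g2 read 123 and 100.4 in WT and 83.5 and 91.6 in CAV1-/- (-0.34, SE 0.17), followed by Ndufa5 (-0.27) and Ndufs5 (-0.20). The mitochondrial gene mt-Co2 also stood higher in CAV1-/- as deposited (0.58) and at 0.077 when summed with its copy.

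**Figure D4:**
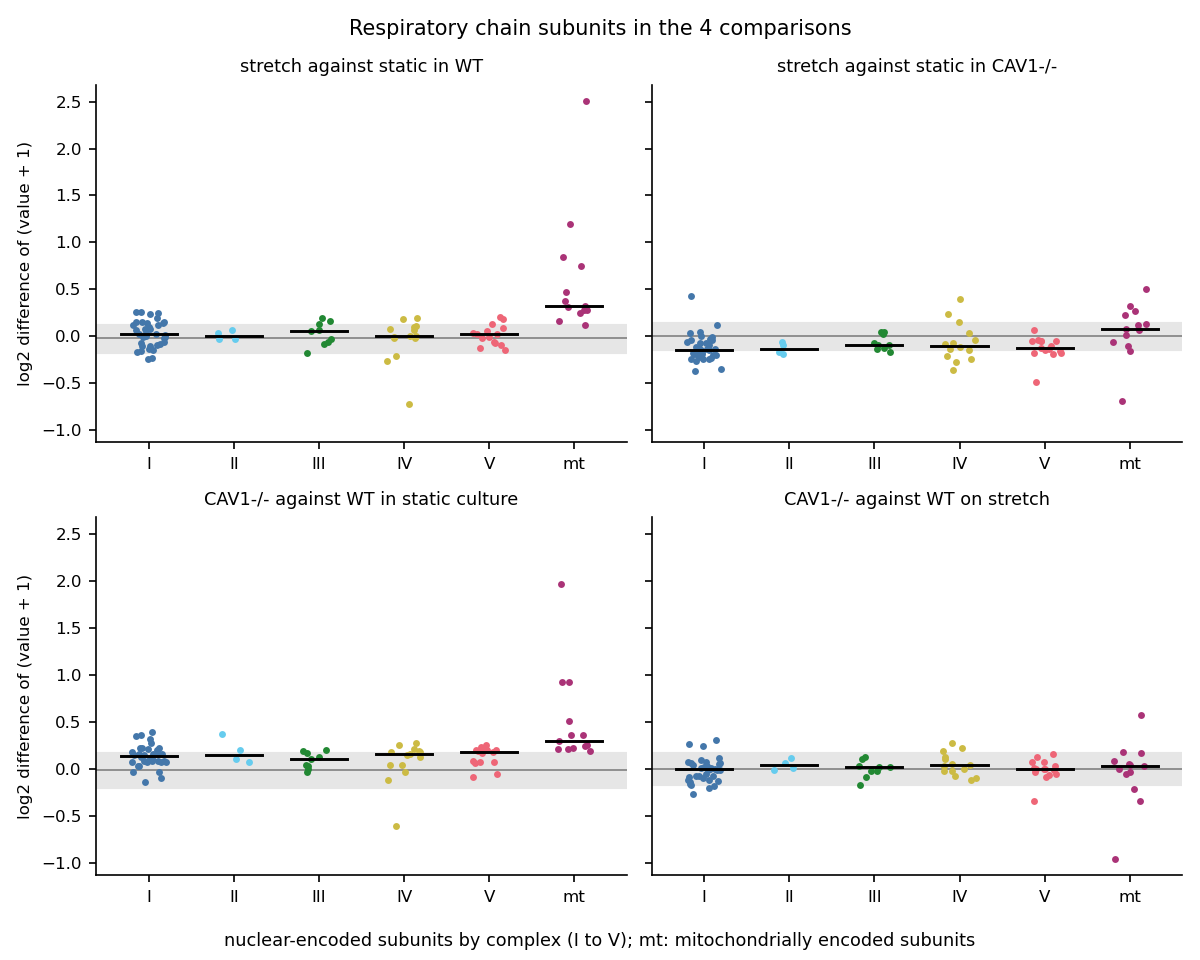
Each point is the log2 difference of 1 member in 1 comparison, with nuclear subunits by complex (I to V) and mitochondrially encoded subunits at the right (mt). Black bars are medians, and the grey line and band are the median and the middle quartiles of all genes tested. The mt median is 0.32 for stretch in WT and 0.078 for stretch in CAV1-/-, where the nuclear medians lie between -0.15 and -0.096.

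The interaction asks whether stretch acted differently in the 2 genotypes. In limma 0 of 94 members were called and 0 had an unadjusted p under 0.05 (5 with the replicate number as a block). Of all 13665 genes 66 had such a p, and 211 with the block. In edgeR and in DESeq2 0 of 94 were called, and 0% of all genes were called in limma. The median of the interaction over the members was -0.15, beside 0.014 for all genes, and 12 of 94 values were positive, none of them among the 13 mitochondrially encoded members. In 16 members the value was higher on stretch in both WT animals and lower in both CAV1-/- animals, and in 1 member the reverse held, beside 4.11% and 4.87% of all genes. The 16 included Ndufb5, Ndufs5, Ndufa11, Sdhd, Uqcrc2 and Cox6b1. They also included mt-Co3 as deposited, which left the pattern when summed with its copy (-0.0039 and 0.12 in CAV1-/- replicates 1 and 2). Ndufb5, for example, read 37.3 and 30.04 in WT static, 41.4 and 38.3 in WT stretched, 45.8 and 42.9 in CAV1-/- static and 41.9 and 36.9 in CAV1-/- stretched MCs, an interaction of -0.41 (SE 0.21, limma adjusted p = 1.00).

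The chain also differed between the animals of each genotype. In WT, 63 of 94 members read higher in both cultures of replicate 1 than in both cultures of replicate 2 and 0 the reverse, beside 27.6% and 26% of all genes. In CAV1-/-, 58 members read higher in both cultures of replicate 1 and 1 in both of replicate 2, beside 30.3% and 31.7% of all genes. The median log2 difference between the animals was 0.22 in WT and 0.23 in CAV1-/- over the members, and about 0 over all genes. It was not particular to the chain. In the lists of related genes described below, it was 0.19 and 0.18 for citric acid cycle enzymes and 0.14 and 0.15 for assembly factors. For mitochondrial ribosomal proteins it was 0.14 and 0.034, for genes of mitochondrial mass 0.087 and 0.12, and for regulators of mitochondrial biogenesis -0.093 and -0.095. This comparison was chosen after the values were seen and carries no test, since the 2 cultures of an animal are not independent and each genotype holds 2 animals.

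The animal difference ran through all nuclear complexes. The nuclear medians in WT were 0.21 (I), 0.20 (II), 0.19 (III), 0.27 (IV) and 0.18 (V), and in CAV1-/- 0.15, 0.27, 0.26, 0.24 and 0.12. Uqcrfs1, the Rieske iron-sulfur protein of complex III, read 56.7 and 62.4 in the static and stretched cultures of WT replicate 1, 45.0 and 44.7 in those of WT replicate 2, 64.2 and 61.3 in CAV1-/- replicate 1 and 52.0 and 47.4 in CAV1-/- replicate 2. Cox8a, a small subunit of complex IV, read 132 and 133, 99.6 and 99.5, 135 and 143, and 103 and 121 in the same order. For both genes all replicate 1 cultures were above all replicate 2 cultures in each genotype. The mitochondrially encoded members showed it in CAV1-/- (median 0.38, 11 of 13 with no overlap) more than in WT (0.076, 3 of 13), and the difference between the genotypes was not tested.

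Several measures moved with this split. The replicate 1 library was the deeper of each pair of the same group, and the leukocyte marker list was higher in replicate 1 in both cultures for 11 of 12 genes in WT and 12 of 12 in CAV1-/-, with a median log2 difference of 1.18 and 3.13. Their part in the animal difference was not tested. Among striated-muscle genes (7 in the table, none at 0) the sum was 202 and 431 in WT replicate 1, 42.8 and 62.3 in WT replicate 2, 692 and 1240 in CAV1-/- replicate 1 and 27.7 and 25.1 in CAV1-/- replicate 2. Acta1 carried the high sums, at 190.2 and 424 in WT replicate 1 and 685 and 1231 in CAV1-/- replicate 1, while Mylpf, which marks fast muscle fibres, was at 0.937 to 2.33 in all libraries. The list as a whole did not follow the split. In WT 1 of the 7 genes was higher in both cultures of replicate 1 and 3 in both of replicate 2, and in CAV1-/- 3 and 2.

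**Figure D5:**
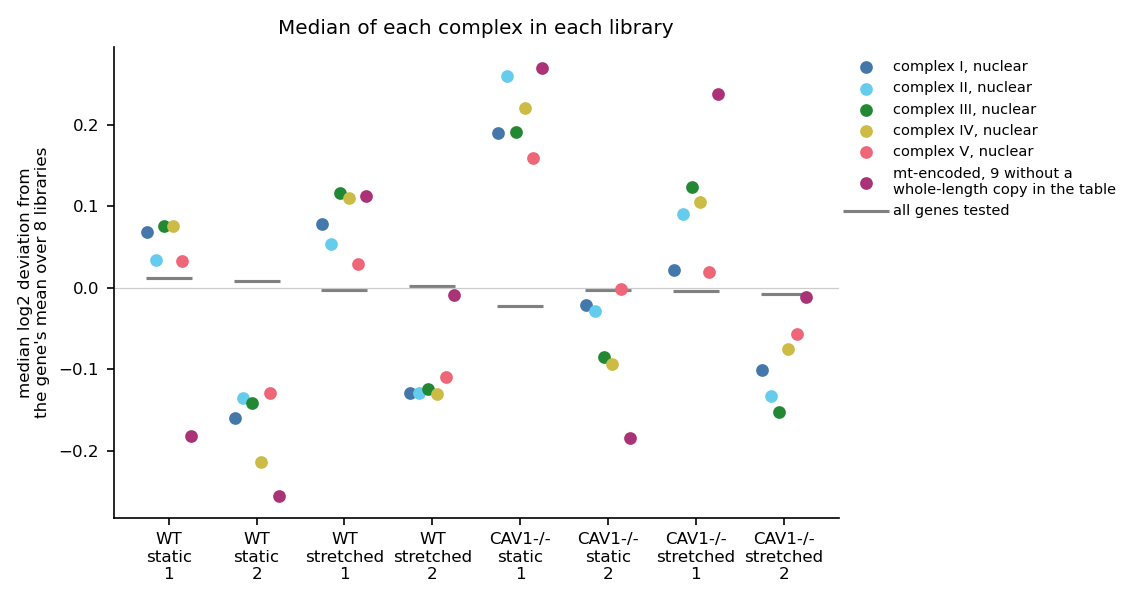
Points give, for each library, the median over the nuclear subunits of each complex, and over the 9 mitochondrially encoded subunits without a whole-length copy in the table, of the log2 deviation from the mean of the gene over 8 libraries. Grey bars are the same for all genes tested and lie near 0. In each group the nuclear complexes lie higher in replicate 1 than in replicate 2.

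Ndufa4l2, a paralog of Ndufa4 known as a hypoxia-induced gene (chr10:127514967-127517154), had the widest spread of all members. It read 25.9 and 38.9 in the static and stretched cultures of WT replicate 1, 2.42 and 2.46 in WT replicate 2, 32.5 and 20.7 in CAV1-/- replicate 1 and 7.20 and 8.04 in CAV1-/- replicate 2. Ndufa4 itself read 96.7 to 121 in all libraries. On a per-length scale Ndufa4l2 was 19.3% to 29.5% of the pair in replicate 1 cultures and 2.72% to 7.75% in replicate 2 cultures. Cox7a1, at a far lower level, read 1.80 to 2.73 in replicate 1 cultures and 0.431 to 0.925 in replicate 2 cultures. Neither stretch nor genotype moved Ndufa4l2 past the test.

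Apart from such exceptions, the nuclear members of the chain were among the steadier parts of the transcriptome. The coefficient of variation over the 8 libraries had a median of 11.6% over the members and 18.4% over all genes tested, and 80 of 94 members lay below the median of all genes, beside 50% of all genes by construction. Of the nuclear members 73 of 81 lay below it. The mitochondrially encoded members had a median of 18.3% as deposited, with 7 of 13 below it. Those 9 with no whole-length copy in the table had 15.3%, with 7 of 9 below it. By complex the nuclear medians were 11.6% (I), 10.4% (II), 10.99% (III), 12.9% (IV) and 9.19% (V). Uqcrh, the hinge protein of complex III, was among the steadiest (61.9 to 74.3, 5.87%), as was Sdha (203 to 240.2, 6.08%), and Ndufa4l2 varied most (82.3%). Members with high counts have less counting error than the typical gene, and their level was not matched in this comparison.

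Related mitochondrial genes were followed as lists chosen with earlier results known. In limma 0 genes of these lists were called in any comparison. In WT on stretch the medians were 0.047 for 77 mitochondrial ribosomal proteins, 0.021 for 44 assembly factors, 0.0065 for 18 citric acid cycle enzymes, 0.064 for 17 genes of mitochondrial mass and 0.067 for 21 regulators of mitochondrial biogenesis. In CAV1-/- on stretch they were -0.072, -0.053, -0.077, -0.064 and 0.048, and for CAV1-/- against WT in static culture 0.075, 0.0496, 0.13, 0.12 and 0.056. On stretch the genotypes differed by medians of -0.053, -0.0088, 0.039, 0.023 and 0.049 in the same order. The respiratory chain median lay above each of these in static culture (0.16) and below each in stretched CAV1-/- MCs (-0.11), and these differences were not tested. Cycs, the mobile carrier cytochrome c that the symbol rule left out, read 57.6 and 48.8 in WT static, 71.3 and 51.3 in WT stretched, 62.7 and 47.5 in CAV1-/- static and 63.6 and 50.3 in CAV1-/- stretched MCs, again higher in replicate 1.

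Promoters of nuclear members were searched because the complexes moved together between libraries. RefSeq windows of 300 bases (GRCm38.p6, 250 before to 50 after a transcription start) were at hand for 64 of the 81 nuclear members. The letters GCATGCGC of the NRF1 motif stood on either strand in 14.5% of the members' windows and 2.71% of all windows, CCGGAAG, bound by ETS factors such as GABPA, in 23.2% and 8.86%, AAGATGGCG of YY1 in 10.1% and 1.403%, and TCAAGGTCA of ESRRA in 2.90% and 0.423%. At least 1 of the 4 was present in 40.6% of the members' windows and 12.5% of all windows. By complex that share was 35.3% (I), 66.7% (II), 60% (III), 27.3% (IV) and 50% (V), on 34, 3, 5, 11 and 16 windows. All windows came from 27025 genes, whether or not they were expressed in these cells, and were not matched to the members in base content. Whether other expressed genes share the excess was not tested. A match is a run of letters and not a bound site. The 170 bases before the start of 3 members are shown with the matches in capitals, as Cox6a1 held NRF1 and ETS letters, Atp5j YY1 and ETS letters and Ndufa11 the NRF1 letters on both strands, which overlap by all but the outer bases (as they do in Cox6a1).
Cox6a1 (chr5:115348959-115349128, minus strand): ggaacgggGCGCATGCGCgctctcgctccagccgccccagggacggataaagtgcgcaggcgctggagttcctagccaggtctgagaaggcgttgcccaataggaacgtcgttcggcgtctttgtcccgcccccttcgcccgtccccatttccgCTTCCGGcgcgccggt
Atp5j (chr16:84834977-84835146, minus strand): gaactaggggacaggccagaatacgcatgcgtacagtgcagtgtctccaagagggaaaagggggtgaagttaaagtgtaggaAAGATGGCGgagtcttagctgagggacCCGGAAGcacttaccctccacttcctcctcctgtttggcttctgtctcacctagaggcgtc
Ndufa11 (chr17:56717592-56717761, plus strand): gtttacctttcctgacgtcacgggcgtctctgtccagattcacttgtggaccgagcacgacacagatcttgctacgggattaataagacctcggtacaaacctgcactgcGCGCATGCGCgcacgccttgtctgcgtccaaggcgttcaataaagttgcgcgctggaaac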

How the data were processed

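RNA was poly-A selected and sequenced as 61-base single reads from NEBNext Ultra libraries, which do not mark strand. According to the labels and the methods of the study, the authors trimmed adapters with Cutadapt, assigned reads to a GRCm38 transcriptome with RSEM and normalized with edgeR's TMM method; CASAVA is also named. The deposited table holds this signal per gene, TMM-normalized CPM, counts scaled by library size. Values were whole multiples of 1 read within 0.02 reads in 100% of entries, so reads could be recovered. The smallest step is worth 0.0485.

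Computed here: limma 3.58.1 in R 4.3.3 on log2(value + 1), 1 mean per group over 8 libraries, empirical Bayes with a mean-variance trend, Benjamini-Hochberg adjustment over 13665 genes. edgeR 4.0.16 (quasi-likelihood) and DESeq2 1.42.0 were run on recovered reads as alternatives, with other pseudocounts, filters, scalings, the replicate number as a block, and each library left out. The test was checked on simulated counts. Copies were found by exact 61-base matches between GENCODE M21 transcripts. Of 13687 row identifiers, 13597 were found in that annotation. No sample column was left unmapped.

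Replicate numbers pair the stretch comparisons, since labels give the same animal for both cultures: deviations from the group means correlated at 0.70 (WT) and 0.85 (CAV1-/-) across genes. Members and lists were chosen with earlier results of these data known. The genes named were the mitochondrially encoded members, core subunits, isoform pairs, the highest and lowest per kb of each complex, and in each comparison the 3 highest and 3 lowest differences among members whose groups did not overlap. Any called member would have been named too. Of the genes this rule picks, 1 is not reported here. Cycs, Acta1, Mylpf, Wt1, Krt19, Atp5j, Ndufb6 and Cox7c fall outside that rule and were chosen after their values were seen. The p-values rest on the spread between the 2 animals of each group, pooled over the 4 groups. The static and stretched cultures of an animal enter this spread as if independent. It therefore rests on fewer independent values than the fit assumes. The number of libraries per group used here is not the number the study states.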

Additional observations from a re-analysis of the deposited data

Results flagged for a closer look

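The medians of stretch differences over 6 sets had opposite signs in the 2 genotypes, positive in both WT animals and negative in both CAV1-/- animals. The median interaction was -0.15 over all members, -0.13 over the nuclear members, -0.17 for complex I, -0.15 for complex III, -0.13 for complex IV and -0.16 for complex V. The WT medians behind them were small, for example 0.041 and 0.019 for all members in replicates 1 and 2, against -0.14 and -0.063 in CAV1-/-. Others were smaller, with WT medians of 0.017 and 0.00094 for the nuclear members. In CAV1-/- replicate 2 the medians were -0.010 for complex III and -0.0049 for complex IV. The 6 sets overlap, and those of the complexes include mitochondrially encoded members. The difference between the genotypes was not tested for these medians, and gene by gene the interaction called 0 of 94 members in limma, edgeR and DESeq2. Complex II and the mitochondrially encoded members did not show opposite signs in all animals.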

How the results depend on the processing

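Across 24 alternatives 0 members were called in any comparison, with the smallest adjusted p of a member at 0.106 (DESeq2) and 0.133 with the replicate block. Depth limits the muscle and testis isoforms most, whose values are low. With the replicate number as a block, 246 genes of the whole table were called between genotypes in static culture and 110 on stretch, against 10 and 8 without it, and none of these counts includes a member. At an unadjusted p under 0.05 the block gave 12 members in static culture, all higher in CAV1-/-, against 4 without it. The same fits gave 2300 and 1117 of all 13665 genes, so the share of members was no higher than that of all genes. For the genotypes the number joins different animals and the labels name no batch behind it, but deviations of libraries with the same number correlated at 0.52 in static and 0.48 in stretched culture across genes. The blocked medians over members were 0.16 and 0.010, and the static median was 0.15 between the replicate 1 libraries and 0.11 between the replicate 2 libraries. edgeR with the replicate block called 229 and 92 genes, edgeR without it 2 in static culture, and DESeq2 309 and 238, and 3 and 7 for stretch in WT and CAV1-/-. Equal totals without mitochondrially encoded genes gave 20 and 13, the fit without trend 6 in static culture, and the fits on 4 libraries, or without CAV1-/- replicate 1 in both conditions, 0 and 0. Leaving out 1 library gave 0 to 8 and 0 to 7. The all-member median for stretch in WT was 0.062 with a mean of at least 5, 0.075 with equal totals and -0.086 to 0.17 with 1 library left out; for stretch in CAV1-/- it was -0.21 to 0.034, and for the interaction -0.27 to -0.016, or -0.075 without CAV1-/- replicate 1 in both conditions. The sum with the copy turned mt-Co2 on stretch in CAV1-/- from 0.50 to -0.030. Per kb of the longest transcript the nuclear medians were 45.4 (I), 64.2 (II), 73.5 (III), 99.5 (IV) and 89.2 (V). Leaving out 1 library also sets both animals of a genotype against 1 in its stretch difference, which mixes in the difference between animals. The cause of these shifts was not tested. Summing the copies, and leaving out the 4 genes that have one, were alternatives chosen after seeing the data.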
